A study of Drosophila melanogaster with 2 samples.

Results

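The genes described here are 9 Drosophila heterochromatin genes, chosen by name: the methyltransferase genes Su(var)3-9, egg and G9a, the cofactor gene wde, the genes Su(var)3-7, Su(var)2-HP2, HIPP1 and ADD1, whose products associate with heterochromatin protein 1a (HP1a), and the kinase gene JIL-1. All of their transcripts in the deposited tables were taken, 20 of 29992 matched transcripts and 9 of 14001 genes. RNA came from whole third-instar larvae homozygous for the allele f04929 of HP1c, a paralog of HP1a, raised at 25 °C on Jazzmix food. The group held 2 replicate libraries, and both carry the mutation. Separate animals or cultures are not mentioned in the labels, and the differences between these libraries may be technical in part. The design names a second genotype, which was not analysed here, so no effect of the allele was computed and no test between groups was possible.

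Heterochromatin in the fly is marked by methylation of histone H3 at lysine 9, which the methyltransferases write and HP1a reads. Proteins that bind HP1a help to pack the marked chromatin around centromeres and on the small chromosome 4. JIL-1 phosphorylates serine 10 of the same histone tail and keeps the mark from spreading into active chromatin. In whole larvae, a lower level can mean fewer cells that express a gene or less RNA per cell, and the 2 cannot be told apart.

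Depth was ample for these genes. The libraries held 39745145 and 45177298 estimated reads, and every member had between 368 and 4231 reads per library. Entries for rRNA pseudogenes took 7.80% of the TPM, a unit of abundance corrected for transcript length and library size, in replicate 1 and 1.42% in replicate 2. Since TPM sums to a fixed total, this depresses all other levels more in replicate 1. Ratios between the libraries were therefore computed from reads scaled by trimmed means (TMM), and intervals are at the 95% level and cover counting error only.

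In both libraries, all 9 genes reached the detection limit of 1 TPM, as did 77.9% of all genes, and they were expressed at middle to low levels. The median over the 9 genes was 10.9 TPM in replicate 1 and 10.5 TPM in replicate 2. The median of the detected genes was 13.1 TPM. Within a library, members lay between the 19.2th and the 59.3th percentile of detected genes. JIL-1 was the most abundant of the 9 and Su(var)3-9 the least, 3.81 ± 0.0692 times apart (SD, n = 2).

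**Figure D1:**
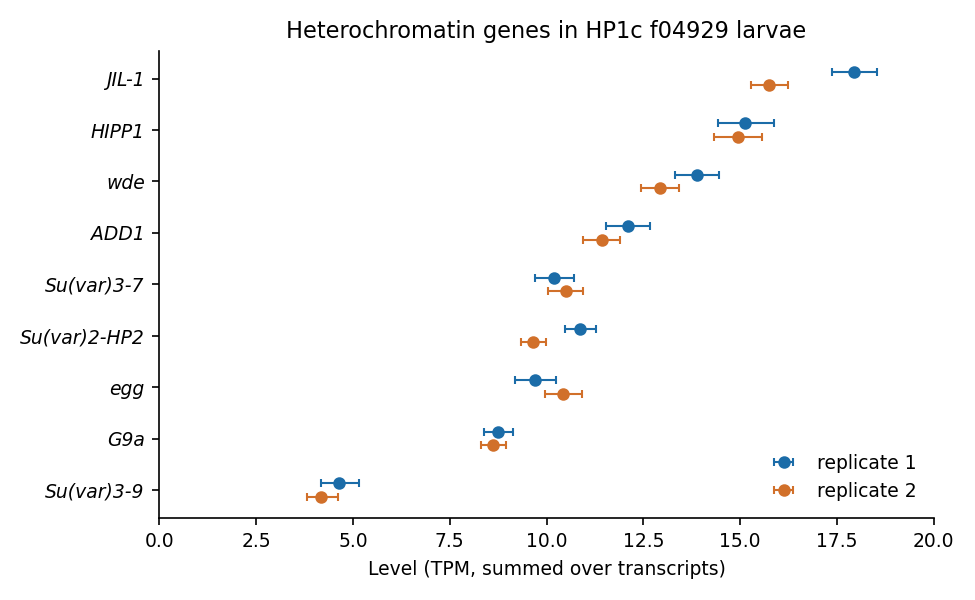
TPM of each of the 9 genes, summed over its transcripts, in replicate 1 (blue) and replicate 2 (orange), with 95% exact Poisson intervals as bars. The genes span 4.42 TPM for Su(var)3-9 to 16.8 TPM for JIL-1. The intervals of the libraries overlap for each gene except JIL-1 and Su(var)2-HP2.

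In order of mean level, JIL-1, HIPP1, wde and ADD1 came first, and the library values of each lay apart from those of the next. Su(var)3-7, Su(var)2-HP2 and egg followed at 10.3, 10.3 and 10.1 TPM, and their library values overlapped. Su(var)3-7 lay above egg in both libraries, but by less than the library values of egg differed, and Su(var)2-HP2 had no fixed place. G9a and then Su(var)3-9 came last, each below the gene before it in both libraries. With 2 libraries the spread itself is poorly known.

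The methyltransferase genes differed in level. Su(var)3-9, whose product methylates pericentric heterochromatin and binds HP1a, stood at 4.65 TPM (95% Poisson interval 4.18 to 5.15) in replicate 1 and 4.19 TPM (3.81 to 4.60) in replicate 2. The gene egg, which encodes the SETDB1 enzyme of the fly, stood at 9.71 TPM (9.19 to 10.3) and 10.4 TPM (9.95 to 10.9). In each library egg lay above Su(var)3-9, 2.09-fold in replicate 1 and 2.49-fold in replicate 2.

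G9a, a methyltransferase known mainly from euchromatin and dispensable for viability in the fly, stood at 8.74 TPM (8.37 to 9.12) in replicate 1 and 8.63 TPM (8.31 to 8.96) in replicate 2. It was thus nearly equal in the 2 libraries and lay between the other methyltransferase genes in both. Of the summed TPM of these genes, egg took 43.4% ± 1.98, G9a 37.5% ± 0.495 and Su(var)3-9 19.1% ± 1.49 (SD, n = 2).

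Su(var)3-9 is a special case of gene structure. It lies on chromosome 3R at 15259864 to 15263458 of the BDGP6 assembly, minus strand, inside the gene of the translation initiation factor subunit eIF2gamma (15257844 to 15263458). Its single transcript, Su(var)3-9-RA, has 3 exons, of which the first 2 are also the first exons of the transcripts eIF2gamma-RB and eIF2gamma-RD. The shared exons hold 352 of its 2386 bases (14.8%), including 241 coding bases, or 80 whole codons. The last exon, with 2034 bases, belongs to Su(var)3-9 alone.

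eIF2gamma was far more abundant, at 73.2 and 78.0 TPM in replicates 1 and 2. Su(var)3-9 came to 6.35% of that level in replicate 1 and 5.37% in replicate 2. Reads in the shared exons fit both genes and were divided between them by the authors' quantification. The reads of Su(var)3-9, 368.3 and 438.5, are not whole numbers, and how many fell in its own exon cannot be read from the files. The transcript eIF2gamma-RB took 90.4% and 95.4% of the TPM of eIF2gamma, and eIF2gamma-RC, which starts at another first exon, had 0 and 6.57 reads.

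**Figure D2:**
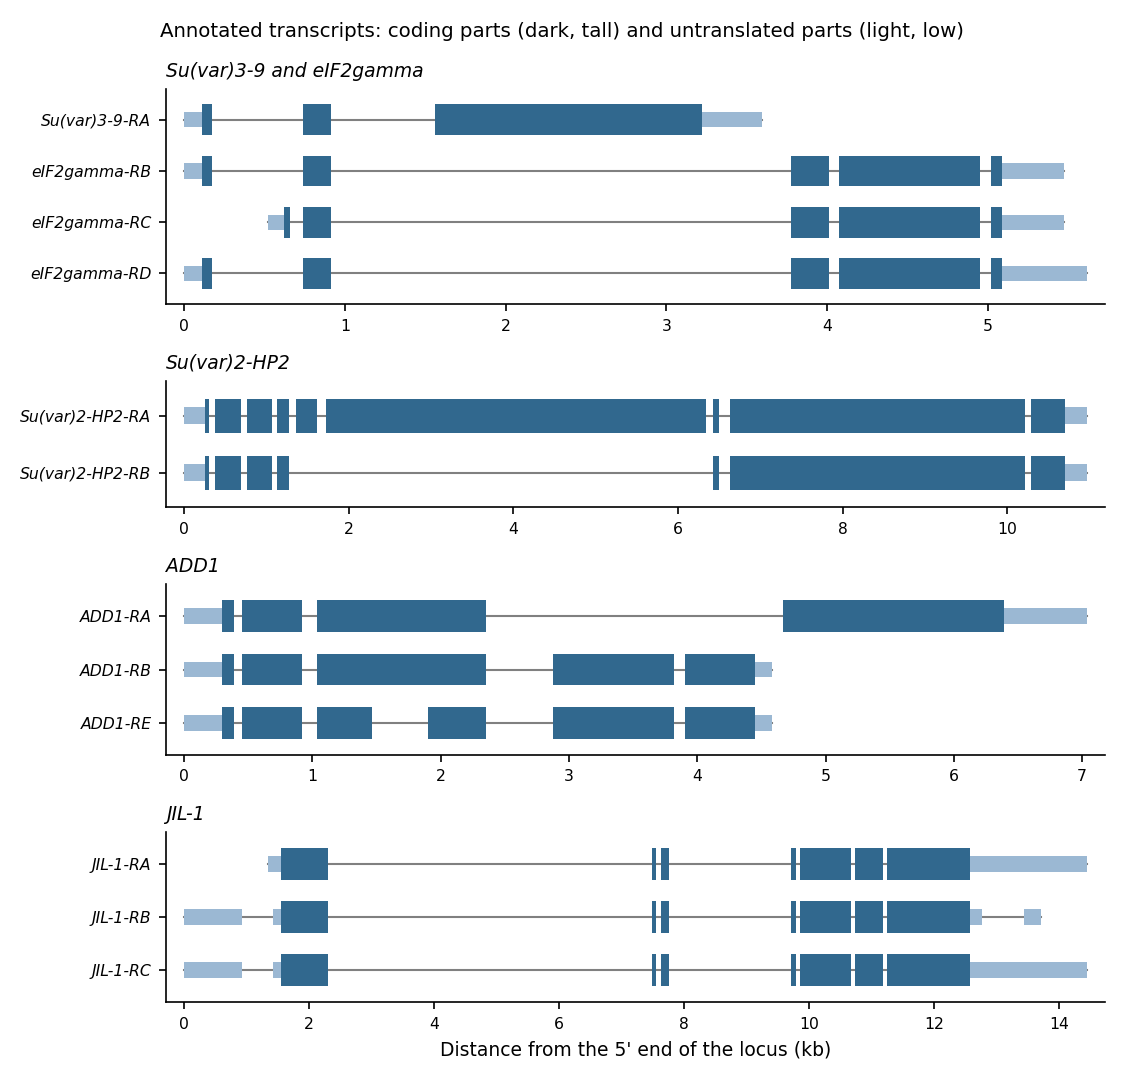
Annotated transcripts of Su(var)3-9 with eIF2gamma, Su(var)2-HP2, ADD1 and JIL-1, drawn 5′ to 3′ as distance in kb from the 5′ end of each locus, with coding parts dark and tall and untranslated parts light and low. Su(var)3-9-RA shares its first 2 exons with eIF2gamma-RB and eIF2gamma-RD, and Su(var)2-HP2-RB lacks a pair of exons that Su(var)2-HP2-RA includes.

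The gene egg (2R, 24775534 to 24779901, minus strand) also has a single transcript, egg-RA, with 1302 and 1849 reads. An antisense RNA gene, asRNA:CR44067, covers 629 bases (16.0%) of its exons on the opposite strand and was not analysed here. No source used here says whether the libraries keep strand, so antisense reads may be counted in egg.

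G9a (X, 245978 to 254650, plus strand) was expressed as 2 transcripts that differ by a 60-base intron in the coding part and by the length of the 3′ end. G9a-RB keeps the intron, which adds 20 codons, and holds 697 bases that G9a-RA lacks. It stood at 6.19 TPM in replicate 1 and 5.20 TPM in replicate 2. G9a-RA, the spliced form, stood at 2.56 and 3.43 TPM. The retained form was the main isoform in both libraries, with 70.8% of the gene in replicate 1 and 60.3% in replicate 2. In reads, the gene held 2128 and 2754, of which 1550.4 and 1727 went to G9a-RB and 578 and 1027 to G9a-RA.

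The cofactor gene wde encodes Windei, the partner that egg needs for methylation and the fly relative of the vertebrate protein ATF7IP. It lies on 2R at 10800420 to 10808938, minus strand. Its level was 13.9 TPM (13.3 to 14.5) in replicate 1 and 12.9 TPM (12.4 to 13.4) in replicate 2. Transcripts of the cofactor were more abundant than those of the enzyme in both libraries, with wde at 1.43 times the egg level in replicate 1 and 1.24 times in replicate 2. The transcripts wde-RA and wde-RB differ only in their untranslated first exon and encode the same protein of 1420.0 residues. The distal start, wde-RA, led in both libraries, at 9.56 and 7.88 TPM from 1575 and 1719 reads, or 68.8% and 60.9% of the gene. The proximal start, wde-RB, stood at 4.33 and 5.05 TPM, from 689.8 and 1066 reads.

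Su(var)3-7 and Su(var)2-HP2, which encode large partners of HP1a, were expressed at like levels. Su(var)3-7, a zinc finger protein gene with dose-dependent effects on silencing, stood at 10.2 TPM (9.70 to 10.7) in replicate 1 and 10.5 TPM (10.05 to 10.9) in replicate 2. Su(var)2-HP2 stood at 10.9 TPM (10.5 to 11.3) and 9.66 TPM (9.34 to 9.98). In scaled reads, its replicate 2 value was 0.968 (interval 0.921 to 1.02) of that in replicate 1, and this interval includes 1. The TPM intervals take the division of reads between its transcripts of unequal length as fixed, and that division differed between the libraries. The ratio of Su(var)3-7 to Su(var)2-HP2 was 0.939 in replicate 1 and 1.09 in replicate 2, so their order differed between the libraries.

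Su(var)3-7 lies on 3R at 13264364 to 13270038, plus strand. The shorter transcript, Su(var)3-7-RB, took 64.7% and 61.7% of the gene, at 6.60 and 6.48 TPM from 950.1 and 1234 reads. Su(var)3-7-RA, at 3.60 and 4.01 TPM from 624 and 922 reads, has a longer 3′ end and 2 extra codons, 834 bases in all. Of the gene's exons, 693 bases overlap those of TBC1D5 on the opposite strand. TBC1D5 stood at 38.7 and 39.5 TPM, several times above Su(var)3-7-RA. The part of TBC1D5 reads in the value of Su(var)3-7-RA was not tested.

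Su(var)2-HP2 (2R, 14607154 to 14618118, minus strand) makes a long and a short protein form. Su(var)2-HP2-RA includes a pair of internal exons with 4872 coding bases and encodes 3257 residues, whereas Su(var)2-HP2-RB skips them and encodes 1633 residues. The short form stood at 6.51 TPM in replicate 1 and 4.87 TPM in replicate 2, and the long form at 4.35 and 4.78 TPM. The short form thus took 59.9% of the gene in replicate 1 and 50.5% in replicate 2, so the forms were nearly equal in replicate 2. By reads the long form led, with 1562 against 1213 in replicate 1 and 2275 against 1203 in replicate 2, since it is the longer transcript.

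HIPP1, named as a partner of HP1 and of insulator proteins, lies on 3L at 20809669 to 20813332, plus strand. It stood at 15.1 TPM (14.4 to 15.9) in replicate 1 and 14.9 TPM (14.3 to 15.6) in replicate 2. Its 4 transcripts combine 2 small splice choices, an acceptor that shifts by 6 bases and a donor that shifts by 3 bases, and encode 923 to 926 residues. HIPP1-RA, which includes both extra pieces, took 96.2% and 90.3% of the gene. It held 1659 of the 1724 reads of the gene in replicate 1 and 2034 of 2252 in replicate 2.

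HIPP1-RB, without the 6 bases, stood at 0.573 and 0.557 TPM, from 65.2 and 83.8 reads, and the upstream acceptor was used in 96.2% and 96.3% of the gene. HIPP1-RC, without the 3 bases, had 0 reads in replicate 1 and 134 in replicate 2. HIPP1-RD, without either piece, had 0 reads in both libraries. HIPP1-RA and HIPP1-RC share 3366 bases and differ by 3, so few reads can tell them apart.

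ADD1 encodes a protein with an ADD domain, a zinc-binding module related to that of vertebrate ATRX, and associates with HP1a. It lies on 2R at 11970686 to 11977721, plus strand. It stood at 12.1 TPM (11.5 to 12.7) in replicate 1 and 11.4 TPM (10.9 to 11.9) in replicate 2. The transcripts end in different exons. ADD1-RA, with the distal last exon and 1199 residues, stood at 8.50 and 8.24 TPM, from 1320.3 and 1696 reads. This was 70.2% and 72.2% of the gene. ADD1-RB and ADD1-RE end in a proximal pair of exons, and ADD1-RE in addition removes 438 bases, or 146 codons, from the coding part.

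The choice of last exon was steady between the libraries, while the split within the proximal forms was not. The proximal forms together stood at 3.60 and 3.18 TPM, or 29.8% and 27.8% of the gene. Within them, ADD1-RE had 409.7 and 352.6 reads and ADD1-RB had 0 and 144 reads. These 0s are estimates from dividing reads between forms that share most of their bases, and set no limit on the form. CG30036 on the opposite strand overlaps 186 exon bases of ADD1, but stood at only 0.552 and 0.452 TPM.

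JIL-1 (3L, 11078752 to 11093193, minus strand) stood at 17.9 TPM (17.4 to 18.5) in replicate 1 and 15.7 TPM (15.3 to 16.2) in replicate 2. All 3 of its transcripts encode the same protein of 1207 residues and differ in the first exon and the 3′ untranslated part. JIL-1-RA, from the proximal start, stood at 9.08 and 6.99 TPM, from 1786 and 1822 reads, and took 50.6% and 44.4% of the gene. JIL-1-RC, from the distal start, stood at 7.05 and 5.46 TPM, from 1596 and 1637 reads, and took 39.3% and 34.7%. These forms share the longer 3′ untranslated region. JIL-1-RB, from the distal start and with a shorter 3′ untranslated region, of which part is spliced out, stood at 1.81 and 3.30 TPM, from 319.8 and 772 reads, and took 10.1% and 20.9%. Summed by start, the distal start supplied 49.4% of the gene in replicate 1 and 55.6% in replicate 2, so neither start led in both libraries.

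**Figure D3:**
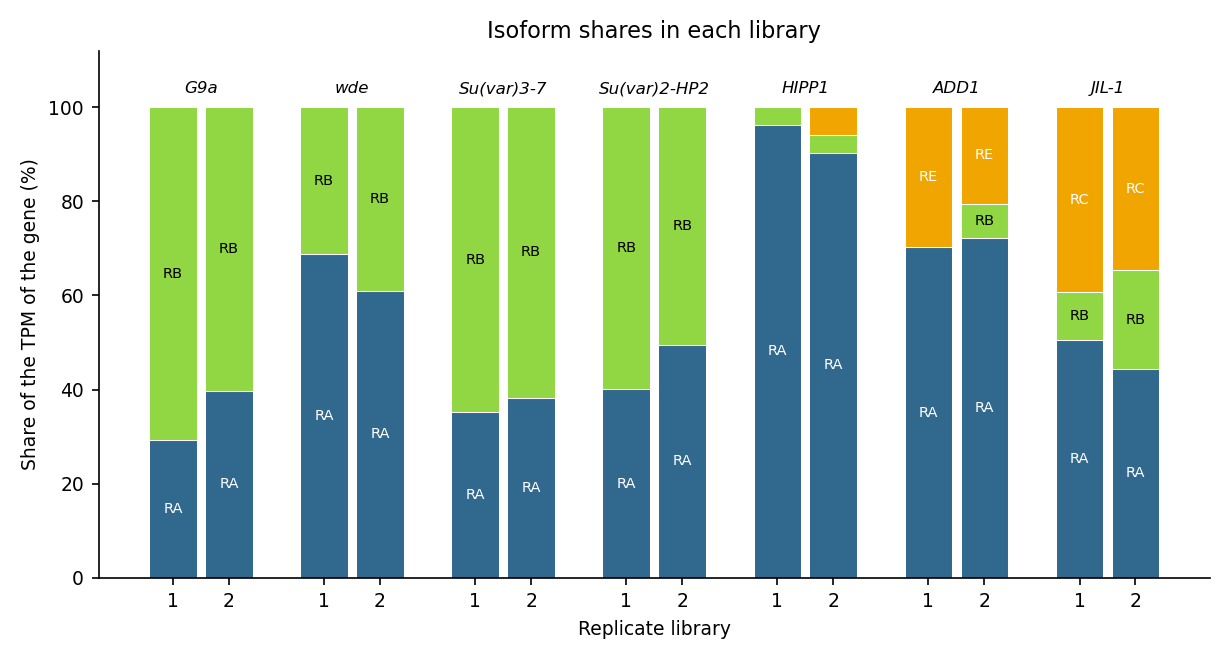
Share of the TPM of each gene with more than 1 transcript taken by each isoform (stacked bars, labelled by the transcript suffix where the share is at least 6%), in replicates 1 and 2. HIPP1 is nearly all HIPP1-RA, while Su(var)2-HP2 and JIL-1 are divided, with Su(var)2-HP2-RB at 59.9% and 50.5% and JIL-1-RA at 50.6% and 44.4%.

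Set against the protein they bind, the HP1a partners were scarce as transcripts. Transcripts of HP1a reached 182 TPM in replicate 1 and 202 TPM in replicate 2. Within a library, HIPP1 came to 7.85% ± 0.637 of that level, ADD1 to 6.15% ± 0.691, Su(var)3-7 to 5.40% ± 0.282 and Su(var)2-HP2 to 5.37% ± 0.832 (SD, n = 2). Su(var)3-9 came to 2.31% ± 0.337. The mutated gene itself, HP1c, had 25 and 42 reads, at 0.842 and 1.08 TPM, below every member.

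The libraries were then compared with each other, which measures the spread within the mutant group and not an effect of a condition. None of the 9 genes was at least 2-fold apart, against 5.42% of the 12203 genes tested and 2.95% of the 5795 genes with mean reads in the range of the members, 403 to 3967. At either share, 0 of 9 does not set the members apart. Their log2 ratios, replicate 2 over replicate 1, ran from -0.18 for JIL-1 to 0.13 for egg, and the median absolute log2 ratio was 0.07 for the members and 0.19 for all genes tested. Over the 5795 genes with like read numbers it was 0.16.

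The ratio interval excluded 1 for 2 members. JIL-1 was 1.13-fold (interval 1.08 to 1.18) higher in replicate 1, and egg was 1.10-fold (1.02 to 1.18) higher in replicate 2. These intervals cover counting error alone. The directions of such small ratios depend on the scaling: with TMM 3 of 9 log2 ratios were above 0, with DESeq2 size factors 2, and with library size alone all 9, since that scaling moved the median of all genes by 0.19.

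**Figure D4:**
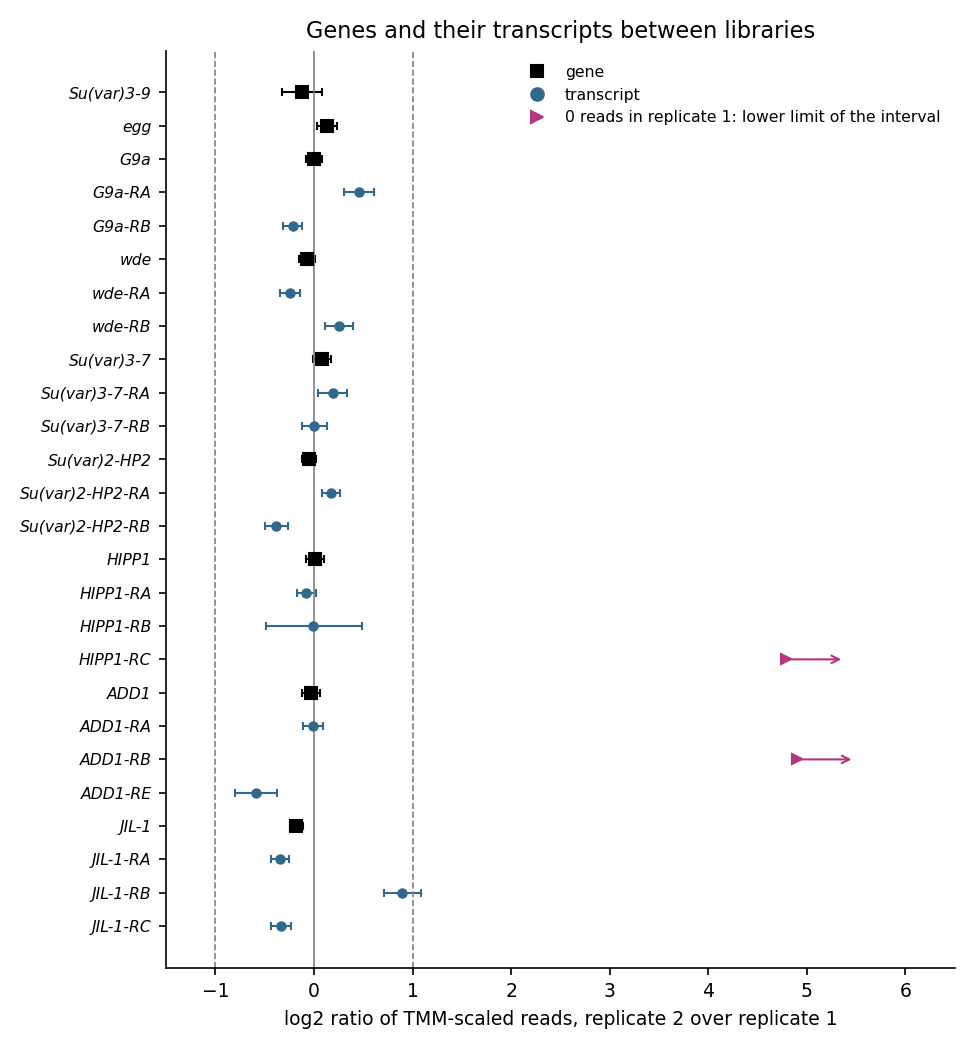
log2 ratio of TMM-scaled reads, replicate 2 over replicate 1, for each gene (squares) and each tested transcript of genes with more than 1 (circles), with 95% exact Clopper-Pearson intervals; dashed lines mark 2-fold, and triangles with arrows mark the lower limit of the interval where replicate 1 had 0 reads. Genes lie between -0.18 and 0.13, and the transcripts spread wider, with HIPP1-RC and ADD1-RB past the dashed line.

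Isoform values differed more between the libraries than gene sums did. Of the 20 transcripts, 16 were at 1 TPM or more in both libraries, against 56.5% of all transcripts. Of the 19 with enough reads, 2 were at least 2-fold apart, HIPP1-RC and ADD1-RB, against 19.5% of all 23627 transcripts tested. Both had 0 reads in replicate 1, so no ratio is given. The lower limits of their Clopper-Pearson intervals, replicate 2 over replicate 1, were 27.7 for HIPP1-RC and 29.8 for ADD1-RB. Each shares most of its sequence with a sister transcript, and the intervals do not cover error in dividing reads between them. Its part in these values was not tested.

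Other isoform ratios stayed under 2-fold with TMM scaling. JIL-1-RB was 1.86-fold (interval 1.63 to 2.13) higher in replicate 2 and passed 2-fold with library size alone. In scaled reads, JIL-1-RA and JIL-1-RC went the other way, at 0.788 (0.738 to 0.842) and 0.792 (0.739 to 0.849) of their replicate 1 values. ADD1-RE had 0.665 (0.575 to 0.769) of its replicate 1 value in scaled reads, while G9a-RA was 1.37-fold (1.24 to 1.52) higher in replicate 2. The short form Su(var)2-HP2-RB was 1.31-fold (1.20 to 1.41) higher in replicate 1 and the long form 1.13-fold (1.05 to 1.20) higher in replicate 2.

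The share of the main isoform was lower in replicate 2 in most members. This was so in 6 of the 7 genes with more than 1 transcript, against 50.3% of the 3683 such genes that averaged 1000 reads or more. A count over 7 genes is too small to set the members apart from that share. The shifts ran from 10.5 percentage points in G9a and 9.47 in Su(var)2-HP2 down to 2.98 in Su(var)3-7, and in ADD1 the main isoform instead gained 1.92 points. The median absolute shift was 6.23 points in the 7 members and 3.17 points in all 3683 genes. The 2 medians are not matched for share. The 3683 genes include some with a main isoform at 100% in both libraries, such as Apc and Arpc2, which did not move. G9a was the only member whose main isoform moved by 10 points or more, as in 17.2% of the 3683 genes. This measure leaves out minor isoforms, such as JIL-1-RB, whose share rose by 10.9 points.

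**Figure D5:**
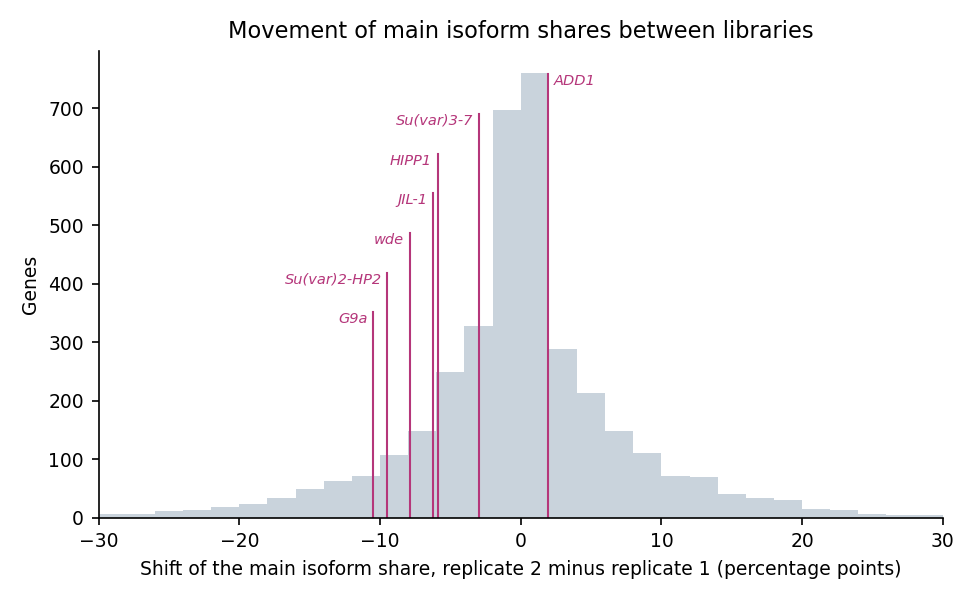
Shift of the main isoform share between the libraries, replicate 2 minus replicate 1 in percentage points, for 3683 genes with more than 1 transcript that averaged 1000 reads or more (grey histogram), with the 7 members as vertical lines whose heights only separate the names. The axis ends at 30 points, which leaves out 46 genes; 6 of 7 members lie below 0 and G9a lies furthest, at -10.5.

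Other genes of the pathway were read from a list of 72 measured genes. Of these, 68 were detected in both libraries, against 77.9% of all genes. The median over all 72, detected or not, was 13.1 TPM. Over all genes, detected or not, the median was lower than this. The equal value of 13.1 TPM given further above covers detected genes only. The most abundant of the 72 were 14-3-3epsilon and 14-3-3zeta, whose products bind phosphorylated histone tails, at 789 ± 63.7 and 507 ± 29.3 TPM. Sumo, which encodes the small protein modifier, lay close to 14-3-3zeta at 506 ± 4.07 TPM and above it in replicate 1. The least abundant were rhi and piwi, at 0.256 ± 0.171 and 0.507 ± 0.0347 TPM. Of the 72, only rhi was at least 2-fold apart between the libraries, 2.73-fold (interval 1.18 to 6.86) higher in replicate 1, against 5.42% of all genes. It had only 19 and 9 reads and lay under the detection limit in both libraries.

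Partners of the members lay on both sides of them in level. Of 12 genes listed as JIL-1 partners or readers of its mark, 6 lay above JIL-1 in both libraries and 5 below it in both. Chro, pzg and Jasper, whose products act with JIL-1 on chromosomes, stood above, at 27.5 ± 1.82, 41.4 ± 1.46 and 24.2 ± 1.14 TPM. The dosage compensation genes mle, msl-1, msl-3, msl-2 and mof were those below, from 15.1 ± 0.468 TPM for mle to 5.19 ± 0.762 TPM for mof. Su(var)2-10, a SUMO ligase gene that acts with egg and wde, stood at 32.0 ± 0.178 TPM, above both of these genes. XNP, the ATRX relative that lacks the ADD domain, stood at 20.4 ± 1.03 TPM and lay above ADD1.

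Genes of other histone demethylases and methyltransferases were also expressed. Of 6 histone demethylase genes, all were detected, against 77.9% of all genes, and none was 2-fold apart, against 5.42% of genes tested. Kdm4A and Kdm4B, which act on methylated lysine 9, stood at 8.25 ± 0.327 and 8.34 ± 0.501 TPM. Of 9 other histone methyltransferase genes, all were detected, against the same 77.9% of all genes. They ran from trr at 5.96 ± 0.756 TPM to Hmt4-20 at 27.6 ± 3.05 TPM. Hmt4-20 methylates histone H4 in heterochromatin downstream of HP1a and lay above all 3 lysine 9 methyltransferase genes in both libraries.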

How the data were processed

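The sources used here give neither the quantifier nor the genome build, strandedness or rRNA removal. Tools listed without a role, per the submitters' processing notes, are STAR 2.5.2, HTSeq 0.6.1, Picard, FastQC and bcl2fastq 2.18.0.12. Per the file headers, the authors deposited TPM, estimated counts of reads, length and effective length per transcript. Transcripts were matched by identifier to the Ensembl release 115 annotation of BDGP6 (29992 of 30119), and both measures were added up over the transcripts of a gene. For ratios, the estimated counts were rounded and scaled by TMM with edgeR 4.0.16 in R 4.3.3. Size factors of DESeq2 1.42.0 and library size alone were alternatives. A gene or transcript was called when it averaged 10 reads or more, was 2-fold or more apart and had an exact Clopper-Pearson interval without 1. Intervals of TPM are exact Poisson intervals, and log2 ratios add 0.5 reads. No p-value was computed, since there is 1 group. All members, genes that overlap them, HP1a, HP1c, direct partners, and the extremes and called genes of the pathway list are named, and the members and lists were chosen with earlier results of these data known. Groupings of transcripts by splice or end choice were added after the data were seen. No sequence was used here, so none is shown.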

Additional observations from a re-analysis of the deposited data

How the results depend on the processing

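No paired analysis was possible because all libraries belong to 1 group, and ratios between the libraries need both, so leaving a library out gives no ratio. The median level of the 9 genes, 10.7 TPM as the mean of the library medians, was 46.7 in CPM and 46.6 in TMM-scaled CPM, units that do not divide by length, and 11.2 TPM with rRNA entries left out. With each library alone it ranged from 10.5 to 10.9 TPM, and the median main isoform share (64.9%) from 60.9% to 68.8%. The median main protein form share (66.0%) likewise ranged from 61.7% to 70.2%. The protein form median leaves out wde and JIL-1, which each encode 1 protein, so these medians cover different genes. The 2 transcripts at least 2-fold apart became 4 at a 1.5-fold threshold and 0 where 100 reads on average were required, which leaves both untested. Summing transcripts by shared splice or end choice, added after the data were seen, left 1, the HIPP1 donor. That sum is no separate check, since it joins HIPP1-RC to HIPP1-RD, which had 0 reads. ADD1-RB was only summed with a form that had more reads. The single pathway gene called, rhi, was not called at 4-fold, leaving 0. No member gene was called under any of the 6 settings tried for genes. Among 5972 genes averaging 100 reads or more, a limit also added later, 23.0% moved their main isoform share by 10 points or more.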
